A study of Mus musculus with 5 samples.

Results

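The cells described here were the tumor epithelial cells with the highest combined level of Wap, Wfdc18 and Dmkn in mammary tumors of MMTV-PyMT mice. A droplet was kept when it held at least 2500 gene UMIs (unique molecular identifiers, each counted as 1 captured mRNA molecule), no more than the study's upper limit against multiplets, and at most 20% mitochondrial UMIs. It was taken as epithelial when Epcam, Krt8 and Krt18 together gave at least 5 UMIs and Ptprc, the pan-leukocyte gene CD45, gave 0. Each epithelial cell was scored by the mean, over Wap, Wfdc18 and Dmkn, of the natural log of 1 plus UMIs per 10000, and the top 10% over all tumors pooled are called Wap-high cells. They were 1341 of 13412 epithelial cells and of 19533 cells kept. The other 12071 epithelial cells, taken from the same tumor each time, were the comparison.

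All mice carried FVB/N-Tg(MMTV-PyVT)634Mul/J, in which the MMTV promoter drives polyoma virus middle T antigen in mammary epithelium, so no tissue without the transgene was present. From 7 weeks of age they received 5 mg/kg of B20-4.1.1, an antibody that neutralizes VEGF-A, or of an isotype control, mouse IgG2a clone C1.18.4, by intraperitoneal injection 2 times a week for 6 weeks. Tumors were dissociated, sorted as DAPI-negative cells, labeled with multiplexing oligonucleotides and loaded 3 tumors to a pool on the 10x 3′ platform. There were 6 isotype tumors in 2 pools and 9 B20-4.1.1 tumors in 3 pools, and every pool held a single treatment, which means that the effect of treatment and that of pool cannot be told apart.

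Alveolar cells are the milk-making cells of the mammary gland. Prolactin acts through its receptor, JAK2 and STAT5 to switch on caseins, alpha-lactalbumin and Wap, the whey acidic protein that is a major whey protein of mouse milk. STAT5 binds palindromic sites of the form TTCNNNGAA. Wap and Wfdc18 encode small secreted proteins with the 4-disulfide WAP domain, and Dmkn encodes dermokine, a secreted protein best known from the upper layers of skin. On GRCm38 (gene models of GENCODE), Wap lies at chr11:6635482-6638637 on the minus strand. Wfdc18 lies at chr11:83709015-83711348, 2747 bases from the end of Wfdc17, a further WAP-domain gene on the same strand, and their annotated transcripts shared 0 stretches of 31 bases. Dmkn lies at chr7:30763756-30781063, between Sbsn, 7622 bases before it, and Krtdap, 6833 bases after it, a cluster of epidermal secreted proteins.

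Promoter sequence is shown for 3 milk genes that rose in Wap-high cells and hold the STAT5 consensus, and for Wap, the gene that gives the cells their name. The RefSeq windows (build GRCm38.p6) reach from 250 bases before to 50 bases after the start of each gene. The milk windows below are 69 bases long with TTCNNNGAA in capitals, searched on the given strand, which for this palindrome covers both. The Csn1s1 stretch is chosen around the match and lies at chr5:87666078-87666146, plus strand, with the match starting 100 bases before the start. That of Csn2 lies at chr5:87699480-87699548, minus strand, with the match 93 bases before it. That of Glycam1 lies at chr15:103565188-103565256, minus strand, with the match 145 bases before it. For Wap the 150 bases before the start are given (chr11:6638650-6638799, minus strand), all in lower case because its whole 300-base window held no match.
Csn1s1: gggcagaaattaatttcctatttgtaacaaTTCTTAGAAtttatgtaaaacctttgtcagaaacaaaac
Csn2: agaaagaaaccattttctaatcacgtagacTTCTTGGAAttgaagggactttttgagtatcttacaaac
Glycam1: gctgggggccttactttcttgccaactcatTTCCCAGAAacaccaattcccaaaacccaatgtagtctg
Wap: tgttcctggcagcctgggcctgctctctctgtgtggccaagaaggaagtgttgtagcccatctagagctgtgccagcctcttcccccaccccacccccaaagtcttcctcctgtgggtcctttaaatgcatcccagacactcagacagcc
The consensus was present in 6 of the 14 windows found for the milk protein list (13 of its 19 genes had an entry), those of Csn1s1, Csn1s2a, Csn2, Glycam1, Pigr and Pip. Over all 32851 windows of the same length it was present in 8.30%. Among windows of genes called higher in Wap-high cells it was present in 6.74%, of genes called lower in 7.34% and of all genes tested in 6.74%. The windows of Wfdc18 and Dmkn held none. A match describes letters only.

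The 15 tumors held 4014509 to 23726246 gene UMIs each. Tumors of the same pool shared 0 cell barcodes, and tumors of different pools shared 0 to 5. Droplets with more than 1 cell were limited only by the UMI maximum and by the multiplexing labels. The 12 tumors with at least 20 Wap-high cells (6 isotype, 6 B20-4.1.1) entered every test across genes. The other 3, with 15, 5 and 13 Wap-high cells, were B20-4.1.1 tumors and did not. Tumor 1 of B20-4.1.1 pool 3 supplied 447 Wap-high cells, 33.3% of all of them, so the main results are also given without it.

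The score was a range with no gap at the cut. The lowest Wap-high cell scored 2.98, as did the highest cell left out, and 227 Wap-high cells and 262 others lay within 0.1 of the cut. Medians were 3.35 in Wap-high cells and 1.81 in the others. The median Wap-high cell held 5 UMIs of Wap, 717 of Wfdc18 and 8 of Dmkn, and the median other cell held 0, 94 and 0. The 20 cells just inside had medians of 1.5, 346.5 and 3.5 UMIs for these genes, and the 20 just outside 3.5, 307 and 1. These 3 genes chose the cells, so their levels are a description. Wap reached 6.43 to 30.98 (median 12.5) UMIs per 10000 over the 12 tumors, Wfdc18 487 to 811 (median 701) and Dmkn 7.09 to 16.9 (median 11.1). In the other epithelial cells Wap was at 0.687 to 2.44 (median 1.16), Wfdc18 at 115 to 361 (median 228) and Dmkn at 0.631 to 2.29 (median 0.913). Wap in the tumor with most Wap-high cells stood apart from the other B20-4.1.1 tumors, at 30.98 per 10000.

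Wap UMIs were not present in every Wap-high cell. Both Wap and Dmkn were detected in 987 cells (73.6%), Wap without Dmkn in 115 (8.58%), Dmkn without Wap in 239 (17.8%), and 0 cells lacked both. At least 1 Wap UMI was found in 82.2% of Wap-high cells, 31.5% of other epithelial cells and 3.37% of 2463 leukocytes (Ptprc-positive cells without the epithelial gate), which should lack the gene. Median depths were 11079, 8442 and 4391 UMIs. With every cell thinned to 2500 UMIs the shares were 63.2%, 15.6% and 1.67%. For Dmkn they were 91.4%, 29.1% and 3.05%, and 73.5%, 14.9% and 1.67% after thinning. Wfdc18 was found in 100%, 99.3% and 89.2%, so cells differed in its level (737, 205 and 5.44 UMIs per 10000) rather than its detection.

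Against the label of secretory cells, 7 alveolar markers were named for this check. Csn1s1, Csn2, Csn1s2a, Csn3, Lalba, Glycam1 and Btn1a1 were all higher in Wap-high cells by the test described below. This did not hold for every kind of Wap-high cell. In the 239 with Dmkn but no Wap UMI, pooled levels of all 7 lay below those of the other epithelial cells. Csn2 was at 1.72 against 2.88 UMIs per 10000, Csn1s1 at 2.07 against 3.69, Lalba at 9.63 against 19.5 and Csn3 at 133 against 174. Markers of several other cell types were at or near 0. T cell markers summed to 0 to 0.301 UMIs per 10000, B cell markers to 0 to 0.0402, endothelial markers to 0 to 0.0557 (3 of 7 genes at 0), fibroblast markers to 0 to 0.0617, erythroid markers to 0 to 0.0603 and adipocyte markers to 0 to 0.0104 (4 of 6 genes at 0). Macrophage markers summed to 3.42 to 6.81 in Wap-high cells, 2.57 to 4.83 in the other epithelial cells and 86.2 in the leukocytes. The sum was higher in Wap-high cells in 11 of 12 tumors. Of its 10 genes 1 had a higher pooled level in Wap-high cells, Cd14, which mammary luminal cells also express. Of 6 macrophage genes tested Cd14 was called higher and Lyz2 lower, and of 3 T cell genes tested 0 were called. Lyz2 kept its call in 11 of 19 alternative settings. Neutrophil markers summed to 3.08 to 11.2 against 3.27 to 11.6, with 1 of 3 tested genes called higher (G0s2). Basal and myoepithelial genes summed to 1.1 to 3.9 in Wap-high cells and 1.1 to 3.2 in the other epithelial cells. That sum was higher in Wap-high cells in 5 of 12 tumors, and 5 of its 15 genes had a higher pooled level there. Of the multiplexing-label UMIs in a tumor's cells, the tumor's own label made up a median of 92.9% in Wap-high cells and 94.3% in the others. The part of these in the results was not tested.

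Wap-high cells were found in all 15 tumors, in very different shares. The share of epithelial cells was 2.33%, 2.24% and 3.14% in isotype pool 1 and 10.7%, 14.6% and 7.15% in isotype pool 2. It was 8.25%, 5.30% and 5.28% in B20-4.1.1 pool 1. In pool 2 it was 6.25%, 9.59% and 8.28%, where the first is 5 of 80 cells (95% exact binomial interval 2.06% to 13.99%). In pool 3 it was 44.6% (447 of 1002, interval 41.5% to 47.8%), 10.4% and 10.2%. Intervals cover counting error only. The 3 tumors of a pool differed most in B20-4.1.1 pool 3 and by over their counting intervals also in isotype pool 2. The isotype pools sat on either side of B20-4.1.1 pools 1 and 2. The mean was 6.70 ± 5.11% (SD, n = 6) in isotype tumors and 12.0 ± 12.4% (n = 9) in B20-4.1.1 tumors. The difference of 5.33 percentage points was within the spread between tumors (2-sided exact permutation p = 0.433, adjusted 0.433 over the 4 single-value tests). Over the 5 pools the exact permutation p was 0.6, and its 10 splits cannot give a p below 0.1. Without the tumor at 44.6% the difference was 1.26 points (exact permutation p = 0.542). With Wap left out of the score it was 8.70 points (exact permutation p = 0.0234).

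**Figure D1:**
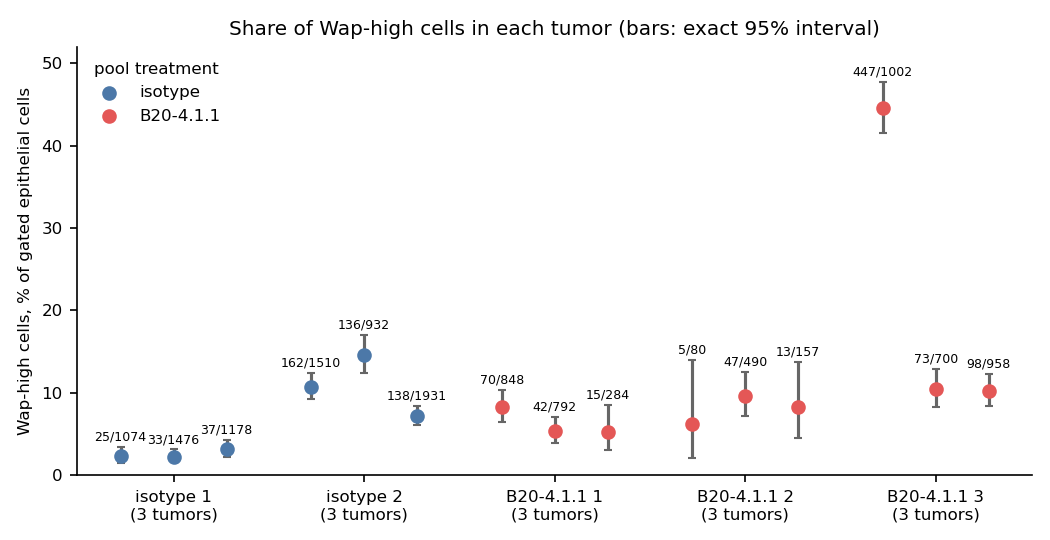
Share of epithelial cells that were Wap-high, in percent, for each of the 15 tumors, grouped by pool and treatment, with 95% exact binomial intervals as bars. Tumor 1 of B20-4.1.1 pool 3 stands at 44.6%, and the other 14 tumors lie between 2.24% and 14.6%.

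Depth and gene number of Wap-high cells depended on whether the score genes were counted. Median UMIs per cell were 6700 to 18591 in Wap-high cells and 7281 to 11409 in the others, higher in 10 of 12 tumors (log2 ratio 0.20 ± 0.26 SD, exact sign-flip permutation p = 0.0200, adjusted 0.0267). With Wap, Wfdc18 and Dmkn taken out of every cell, an alternative chosen after seeing the data, the ratio was 0.13 and higher in 9 of 12 (exact permutation p = 0.102). It also lost its call with Dmkn left out of the score (0.13, p = 0.287, exact), without isotype pool 2 (0.20, exact p = 0.0742) or without B20-4.1.1 pool 3 (0.18, exact p = 0.113). At a fixed 2500 UMIs the median number of genes was 1088 to 1218 against 1128 to 1232, lower in 12 of 12 tumors (difference -25.75 ± 10.9 genes, SD). That measure counts the Wfdc18 UMIs by which the cells were chosen, so it is given with no test. With the score genes taken out and 2000 of the remaining UMIs drawn per cell, the direction turned, at 975 to 1076 against 975 to 1048 genes, higher in 11 of 12 tumors (difference 14.9 ± 9.20 genes, SD, exact permutation p = 0.000977). The mitochondrial share was 2.05% to 6.13% against 2.74% to 6.08%, lower in 11 of 12 tumors (difference -0.41 ± 0.27 percentage points, SD, exact permutation p = 0.000977, adjusted 0.00195). The UMIs per cell and the total behind this share also count the score genes, which chose the cells. Tests with those genes included are therefore a description only. With the score genes taken out the difference in mitochondrial share was -0.24 ± 0.30 points, lower in 11 of 12 (exact permutation p = 0.0230).

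Across genes, UMIs were summed per tumor for Wap-high and for other epithelial cells and compared within tumor by edgeR's quasi-likelihood test. The score and gating genes were not tested. Of 10979 genes tested, 1248 (11.4%) were higher in Wap-high cells and 1090 (9.93%) lower at an adjusted p under 0.05. The median log2 difference over all tested genes was -0.014. Levels below are UMIs per 10000 gene UMIs as the lowest, highest and median tumor of the 12, and differences are Wap-high minus other cells on the log2 scale.

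Most milk protein genes tested were higher in Wap-high cells. Of 17 milk protein genes tested (19 listed), 14 were higher and 0 lower, with a median log2 difference of 1.02, beside 11.4% of all genes called higher. Over 19 alternative settings 13 to 16 were higher and 0 to 2 lower, with 13 higher and 1 lower without the tumor that had most Wap-high cells. The setting with 2 lower was the score without Wap. Csn2 (beta-casein) was at 0 to 64.4 (median 14.4) UMIs per 10000 in Wap-high cells and 0.0285 to 9.83 (median 1.91) in the other epithelial cells (log2 difference 3.13 ± 0.36 (SE), adjusted p = 4.65e-07). Csn1s1 (alpha-S1-casein) was at 0.387 to 43.9 (median 6.43) UMIs per 10000 in Wap-high cells and 0.429 to 8.07 (median 2.38) in the other epithelial cells (log2 difference 1.87 ± 0.23 (SE), adjusted p = 1.24e-06). Each was higher in Wap-high cells in 11 of 12 tumors. The exception for Csn1s1 and Csn2 was tumor 1 of isotype pool 1, where 25 Wap-high cells held 0 Csn2 UMIs per 10000 against 1.23 in the others, and 0.387 against 3.22 for Csn1s1. Csn1s2a was higher in 10 of 12 (2.59). Glycam1, a secreted mucin-like milk protein, had the largest difference of the list (3.88 ± 0.52 (SE), adjusted p = 5.40e-06) but was higher in 6 of 12 tumors and at 0 in the Wap-high cells of the other 6. Tumor 1 of isotype pool 2 held 1778 of its 2718 UMIs in Wap-high cells. It had a UMI in 3.36% of Wap-high cells, 0.895% of other epithelial cells and 0.244% of leukocytes. It could be tested in 11 of the 19 alternative settings and lost its call by DESeq2 (1.99).

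Most other milk genes on the list also rose. Csn3 (kappa-casein) had a UMI in 99.8% of Wap-high cells, 99.02% of other epithelial cells and 81.0% of leukocytes, and was at 159 to 295 (median 251) UMIs per 10000 in Wap-high cells and 128 to 214 (median 167) in the other epithelial cells (0.56 ± 0.065 (SE), 11 of 12 tumors). Lalba, alpha-lactalbumin, the regulatory subunit of lactose synthase, was at 11.2 to 58.9 (median 34.0) UMIs per 10000 in Wap-high cells and 6.99 to 26.2 (median 18.6) in the other epithelial cells (1.02 ± 0.084 (SE), 12 of 12). Ltf, the iron-binding protein lactoferrin, was at 34.9 to 78.2 (median 50.9) UMIs per 10000 in Wap-high cells and 9.20 to 19.0 (median 11.7) in the other epithelial cells (log2 difference 2.14 ± 0.11 (SE), adjusted p = 2.40e-12, 12 of 12). The milk fat globule proteins Btn1a1 (butyrophilin, 1.26, 12 of 12), Xdh (xanthine dehydrogenase, 0.69, 11 of 12), Mfge8 (0.60, 10 of 12), Muc1 (0.88, 11 of 12) and Muc15 (0.80, 12 of 12) were higher. Pigr, which carries immunoglobulin A into milk (1.17, 12 of 12), and Cel, the bile-salt-stimulated milk lipase (1.97, 9 of 12), were higher as well. Spp1 (osteopontin, -0.13 ± 0.13 (SE)), Trf (transferrin, 0.093 ± 0.067 (SE)) and Csn1s2b (0.80 ± 0.36 (SE)) did not pass the test.

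**Figure D2:**
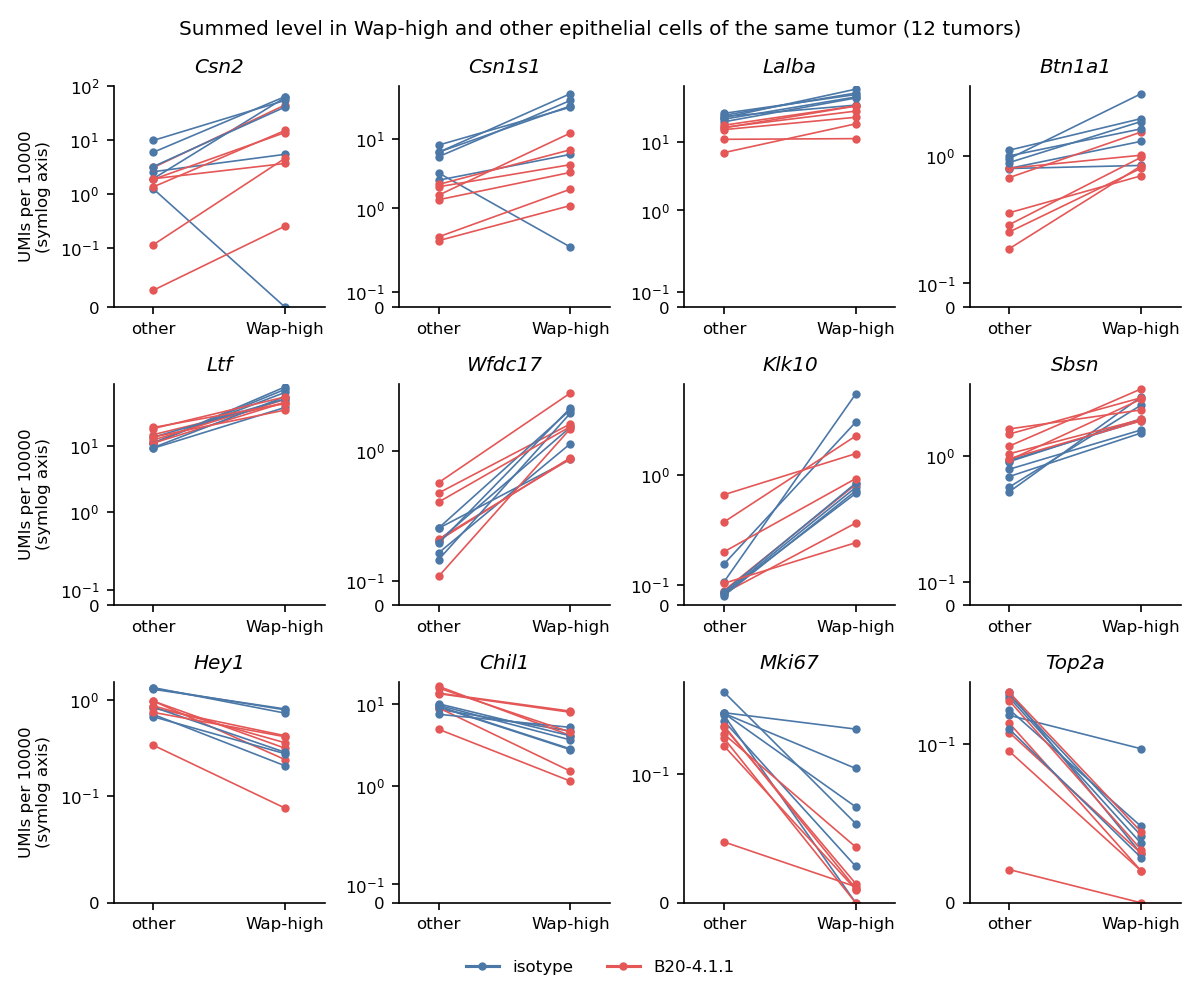
UMIs per 10000 of 12 genes in the other epithelial cells (left) and the Wap-high cells (right) of each of the 12 fitted tumors, joined by a line per tumor and colored by treatment, on an axis that is linear near 0 and logarithmic above. Lines of Ltf, Btn1a1, Lalba, Wfdc17, Klk10 and Sbsn rise in every tumor, those of Hey1, Chil1, Mki67 and Top2a fall in every tumor, and Csn2 and Csn1s1 rise in 11 of 12.

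Casein UMIs were concentrated in few cells, among Wap-high cells and among the others. The 67 Wap-high cells with most Csn2 UMIs (5% of them) held 83.2% of all Csn2 UMIs of Wap-high cells. The same share was 93.0% for Csn1s2a and 68.5% for Csn1s1. It was 31.1% for Lalba, 23.6% for Ltf, 43.7% for Wap, 23.7% for Dmkn and 14.6% for Wfdc18. In the other epithelial cells the top 5% held more of the UMIs of each of these genes. For Csn2, Csn1s2a and Csn1s1 it was 97.7%, 95.6% and 85.9% there. For Lalba, Ltf, Wap, Dmkn and Wfdc18 it was 39.2%, 55.5%, 59.9%, 56.2% and 28.1%. Glycam1 had a UMI in 3.36% of Wap-high cells and 0.895% of the others, below 5%, so its share had to be 100%. At least 1 Csn2 UMI was found in 24.6% of Wap-high cells, 11.3% of other epithelial cells and 5.44% of leukocytes (17.6%, 5.66% and 3.33% at 2500 UMIs). For Lalba it was 80.8%, 70.8% and 19.7%, and for Ltf 90.4%, 50.7% and 12.3%. Across single cells the score genes went together weakly, which in sparse counts is a description only. Spearman's rho per tumor was 0.0676 to 0.327 for Wap with Wfdc18, -0.0600 to 0.197 for Wap with Dmkn and 0.258 to 0.518 for Wfdc18 with Dmkn over the epithelial cells of 15 tumors. Wfdc18 and Ltf gave 0.335 to 0.498, and Wap and Csn2 -0.0941 to 0.236 over 14. All these values share each cell's depth.

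Wap-high cells with Wap but no Dmkn UMI and those with Dmkn but no Wap UMI carried different secretory genes. These kinds were formed after seeing the data and share the score, so they are described with no test. Median depths were 10167 and 7658 UMIs. Pooled over tumors, cells with Wap but no Dmkn held 57.8 Csn2 UMIs per 10000 against 1.72, and 28.0 of Csn1s1 against 2.07. Csn3 was at 313 against 133, Lalba at 43.1 against 9.63 and Trf at 55.0 against 18.9. Lao1, a secreted L-amino acid oxidase of milk, was at 6.61 against 0.251, and the lipid droplet protein Plin2 at 5.596 against 2.88. Each of these 7 genes was higher in the Wap kind in 4 of 4 tumors, those where both kinds reached 10 cells. They were tumors 1, 2 and 3 of isotype pool 2 and tumor 1 of B20-4.1.1 pool 3, so the other pools are not represented. The reverse held in 4 of 4 for Ltf (29.3 against 58.0), Muc15 (6.86 against 11.7), the epidermal genes Sbsn (0.568 against 5.83) and Klk10 (0.0394 against 3.57), Ly6a (0.812 against 6.40), the retinaldehyde dehydrogenase Aldh1a3 (0.118 against 4.26) and the basal keratin Krt14 (0.0631 against 1.66). In tumor 1 of isotype pool 2, for example, Csn2 was at 127 in 19 cells of the Wap kind and 1.19 in 35 of the Dmkn kind, and Aldh1a3 at 0.0843 and 5.45. In the tumor with most Wap-high cells, Csn2 was at 18.6 and 3.86.

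**Figure D3:**
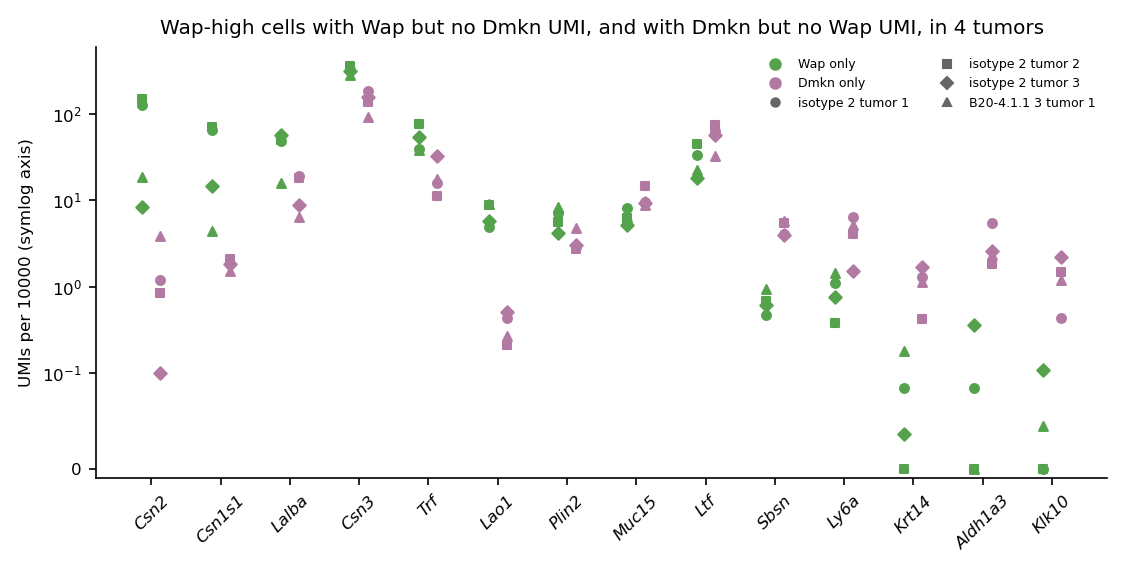
UMIs per 10000 in Wap-high cells with Wap but no Dmkn UMI and with Dmkn but no Wap UMI, in 4 tumors (10 or more cells of each kind). The tumors are 1, 2 and 3 of isotype pool 2 and 1 of B20-4.1.1 pool 3. The axis is linear near 0 and logarithmic above. Csn1s1, Csn2, Csn3, Lalba, Trf, Lao1 and Plin2 lie higher in the Wap kind, and Ltf, Muc15, Sbsn, Klk10, Ly6a, Aldh1a3 and Krt14 in the Dmkn kind, in each of the 4 tumors.

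Most of the tested genes for making milk fat were called higher. Of 24 tested genes of fatty acid and milk lipid synthesis (28 listed), 15 were higher and 4 lower (median 0.45). Over the alternatives 9 to 15 were higher and 1 to 8 lower, with 9 and 8 when Wap was left out of the score. Olah, the thioesterase that ends fatty acid synthesis early to release the medium-chain fatty acids of milk, was at 0 to 0.178 (median 0.0567) UMIs per 10000 in Wap-high cells and 0 to 0.0338 (median 0.00954) in the other epithelial cells (log2 difference 2.84 ± 0.31 (SE), adjusted p = 2.52e-07, 11 of 12 tumors). Lpl (lipoprotein lipase) differed by 1.61, Cidea, a lipid droplet protein of milk secretion, by 1.37 and Plin2 by 0.88. Acaca (0.67) and Acly (0.59), which supply the first steps, Acss2 (0.62), Acsl1 (0.60), Gpat4 (0.55) and Dgat1 (0.58) were higher, while Fasn, the synthase itself, did not pass the test (0.070 ± 0.11 (SE)). The 4 lower genes were Srebf1, the transcription factor of lipogenesis (-0.62), Elovl6 (-0.62), Insig1 (-0.62) and Scd2 (-0.22). Insig1 lost its call in 6 and Scd2 in 7 of the 19 alternative settings.

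The prolactin axis moved in both directions. Of 23 tested genes of this list (24 listed), 9 were higher and 5 lower (median 0.13). The transcription factors Stat5a (0.55 ± 0.11 (SE), adjusted p = 4.38e-04, 10 of 12 tumors), Stat5b (0.39), Elf5 (0.52 ± 0.060 (SE), 12 of 12) and Ehf (0.46, 12 of 12) and the kinase Jak2 (0.44) were higher. The prolactin receptor Prlr (-0.47 ± 0.098 (SE), adjusted p = 8.55e-04, lower in 11 of 12), the growth hormone receptor Ghr (-0.39), Socs2, a feedback inhibitor of this pathway (-0.87 ± 0.11 (SE)), Ets1 (-0.82) and the ERBB family receptor Erbb4 (-1.10, lower in 12 of 12) were lower. Cish, a STAT5 target, did not pass the test (0.18 ± 0.14 (SE)). Stat5b lost its call in 9 of the alternative settings.

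In the WAP-domain family, 5 of 15 genes could be tested beside the score genes. Wfdc17, the neighbor of Wfdc18, was at 0.833 to 3.38 (median 1.66) UMIs per 10000 in Wap-high cells and 0.118 to 0.511 (median 0.269) in the other epithelial cells (log2 difference 2.72 ± 0.17 (SE), adjusted p = 2.03e-11, 12 of 12 tumors). It is also a leukocyte gene here, at 6.82 UMIs per 10000 in leukocytes against 1.85 in pooled Wap-high cells. A UMI was found in 31.4% of Wap-high cells, 7.89% of other epithelial cells and 30.6% of leukocytes (15.6%, 3.70% and 24.1% at 2500 UMIs). Wfdc3 was higher (0.69). The protease inhibitor Slpi (-0.56 ± 0.12 (SE)) and Wfdc2 (-0.72 ± 0.23 (SE)) were lower, and Wfdc12 did not pass (0.36 ± 0.31 (SE)). Wfdc2 lost its call in 11 of the alternative settings.

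Of the epidermal and cornified-envelope genes, 5 of 10 tested (25 listed) were higher and 0 lower. Klk10, a kallikrein-related protease, was at 0.306 to 7.74 (median 0.811) UMIs per 10000 in Wap-high cells and 0.0456 to 0.617 (median 0.0886) in the other epithelial cells (log2 difference 3.31 ± 0.28 (SE), adjusted p = 4.75e-09, 12 of 12 tumors). Sbsn (suprabasin) was at 1.63 to 4.26 (median 2.46) UMIs per 10000 in Wap-high cells and 0.482 to 1.79 (median 0.903) in the other epithelial cells (log2 difference 1.56 ± 0.12 (SE), adjusted p = 1.45e-09, 12 of 12). Klk8 (0.98), Lypd3 (0.88) and Klk6 (0.89) were higher, of which Klk6 lost its call in 8 alternative settings. Dmkn sits in the score, and without it 2 of 8 genes of the list were higher and 3 lower, with Klk8 at -1.16 and Lypd3 at -0.52, both called lower, and Sbsn at 0.25, which did not pass. The luminal progenitor list gave 5 higher and 2 lower of 11. Aldh1a3 (2.04 ± 0.21 (SE), 11 of 12), Cxcl2 (1.04), Cd14 (0.75), the surface gene Plet1 (0.44) and the receptor kinase Kit (0.25) were higher, and the Notch target Hey1 (-1.25 ± 0.10 (SE)) and Tspan8 (-1.06) were lower in 12 of 12 tumors. Without Dmkn in the score the list had 4 higher and 3 lower, with Aldh1a3 at 0.024 and Kit at -0.20, neither called. Among hormone-sensing genes Areg, an EGFR ligand, was lower (-1.86 ± 0.23 (SE), 12 of 12), as was Prom1 (-0.48), Krt19 was higher (1.15, but 0.091 and not called without Dmkn in the score) and Esr1 did not pass (-0.14 ± 0.23 (SE)). Of 6 basal genes tested, Trp63 (-2.27), Krt17 (-1.15) and Vim (-0.43) were lower and 0 higher. Krt17 lost its call in 5 alternative settings, and without B20-4.1.1 pool 3 the list had 2 higher and 1 lower.

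Most proliferation genes were lower. Of 27 tested G2/M genes (32 listed), 26 were lower and 0 higher, with a median log2 difference of -1.62, beside 9.93% of all genes called lower. Of 23 S-phase genes (28 listed), 15 were lower and 0 higher (median -0.65). In every alternative 0 of either list was higher, with 12 to 31 G2/M and 6 to 19 S-phase genes lower. Without the tumor with most Wap-high cells 17 of 19 and 11 of 21 were lower. Mki67, the proliferation antigen, was at 0 to 0.247 (median 0.0216) UMIs per 10000 in Wap-high cells and 0.0474 to 0.515 (median 0.277) in the other epithelial cells (log2 difference -2.43 ± 0.22 (SE), adjusted p = 7.72e-09, lower in 12 of 12 tumors). Top2a, the topoisomerase of dividing cells, was at 0 to 0.0967 (median 0.0323) UMIs per 10000 in Wap-high cells and 0.0209 to 0.228 (median 0.165) in the other epithelial cells (log2 difference -2.09 ± 0.17 (SE), adjusted p = 1.45e-09, lower in 12 of 12). The mitotic genes Ccnb1 (-3.35), Cenpf (-3.29) and Nusap1 (-3.21) and the ribonucleotide reductase subunit Rrm2 (-2.74) had large differences, whereas Pcna (-0.20 ± 0.16 (SE)) and Kif20b (-0.41 ± 0.20 (SE)) did not pass. Ccnb1 could be tested in 12 and Rrm2 in 15 of the 19 alternative settings, and both kept their calls in those. A Mki67 UMI was found in 2.98% of Wap-high cells, 7.47% of other epithelial cells and 7.92% of leukocytes (0.969%, 3.38% and 4.91% at 2500 UMIs), and leukocytes, which also divide, give no background for this gene.

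**Figure D4:**
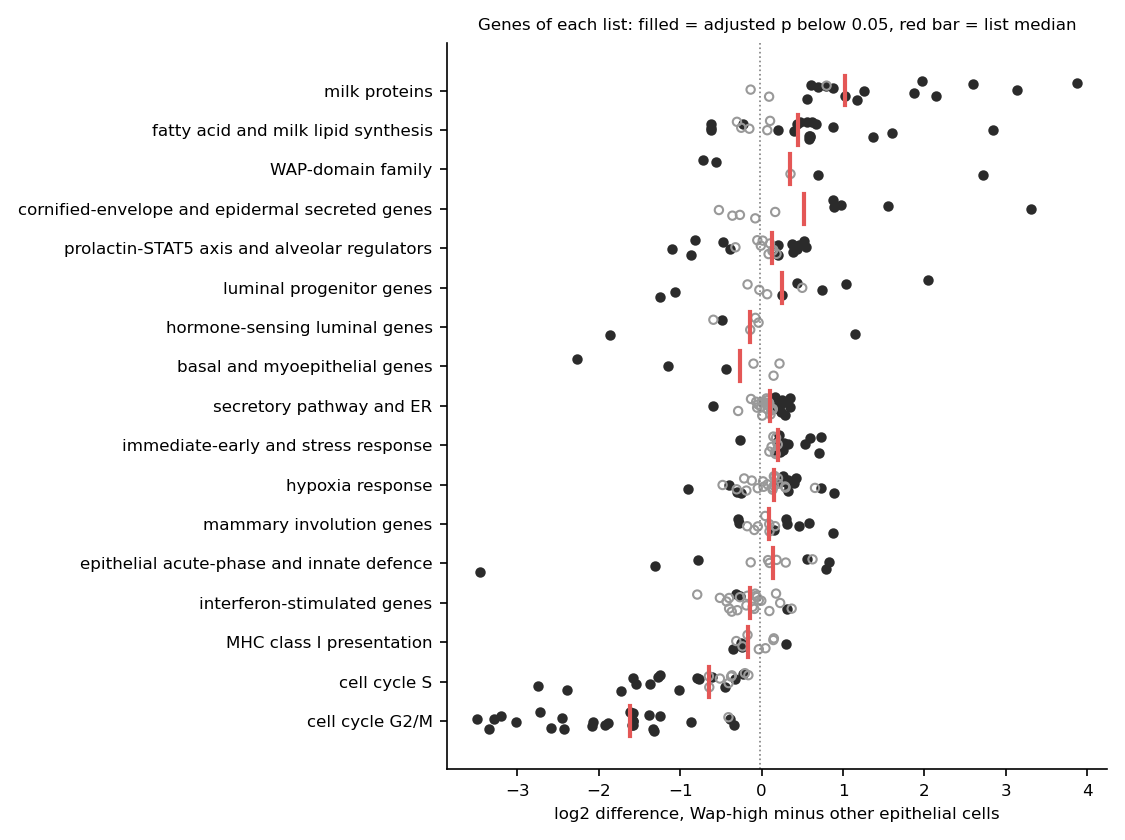
Log2 differences between Wap-high and other epithelial cells for the tested genes of each list, with 1 point per gene, filled where the adjusted p was under 0.05, a red bar at the list median and a dotted line at the median of all tested genes. The milk protein points lie to the right with a median of 1.02, and the G2/M points to the left with a median of -1.62.

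Other programs moved less or depended on the score. Of 36 genes of the secretory pathway and endoplasmic reticulum, 14 were higher and 1 lower, with a median of 0.10. These were small differences, such as the chaperone Hspa5 (0.19 ± 0.068 (SE)), the unfolded-protein factor Xbp1 (0.29 ± 0.065 (SE)) and the co-chaperone Dnajb11 (0.25), and Herpud1 was lower (-0.60, 12 of 12 tumors). Without Wap in the score 2 were higher and 13 lower. Of 20 immediate-early genes, 12 were higher and 1 lower, led by Klf4 (0.72), Atf3 (0.70), Dusp1 (0.60) and Jund (0.53), and without Dmkn in the score 1 was higher and 3 lower. Of 34 hypoxia genes, 11 were higher, such as Ndrg1 (0.89), and 4 lower, such as Adm (-0.91), against 5 and 7 without Dmkn in the score. Of 15 involution genes, 6 were higher, among them the secreted chaperone Clu (0.88) and the lysosomal proteases Ctsb (0.59, 12 of 12), Ctsl (0.30) and Ctsd (0.15), and Igfbp5 (-0.28) and Tgfb3 (-0.29) were lower in 12 of 12. Of 12 acute-phase genes 3 were higher (Lrg1 0.82, Saa2 0.79, Lbp 0.56) and 3 lower (Hp -3.46, Chil1 -1.31, Steap4 -0.78, each in 12 of 12). Saa2 lost its call in 10 of 19 alternative settings and was at -1.31 without Wap in the score. Of 24 interferon-stimulated genes 1 was higher and 2 lower, and of 11 MHC class I genes 1 higher and 3 lower, including B2m (-0.25). Over all genes 11.4% were higher and 9.93% lower, so the interferon counts were no larger than for genes at large.

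Outside the lists, the largest differences held by all 12 tumors were named by a fixed rule. Rising with Klk10, Wfdc17 and Ltf were Lao1 (2.12 ± 0.16 (SE)), Apol7a (1.57), the guanine deaminase Gda (1.23), Sectm1a (1.10), the tubulin Tubb2b (1.10), Orai1, the store-operated calcium channel (1.05), the phospholipid-binding Anxa1 (0.96) and the adaptor Sh3kbp1 (0.95). Anxa1 was at -0.0085 without Dmkn in the score. Lao1 was at 0.845 to 7.06 (median 2.55) UMIs per 10000 in Wap-high cells and 0.317 to 1.01 (median 0.688) in the other epithelial cells. Falling with Chil1, Hey1 and Tspan8 were the retinol-binding Rbp7 (-2.12 ± 0.23 (SE)), the surface glycoprotein Cd200 (-1.46), the collagens Col9a2 (-1.26) and Col11a1 (-1.16), Arhgef6 (-1.19), the water channel Aqp5 (-1.07), Mia (-1.04), St6galnac4 (-0.97), Apoc1 (-0.95), the isoprenoid enzyme Idi1 (-0.94) and Ramp1 (-0.93). Rbp7 was at 0 to 0.218 (median 0.102) UMIs per 10000 in Wap-high cells and 0.140 to 1.20 (median 0.451) in the other epithelial cells. The rule took 15 of 125 eligible genes that rose and 15 of 204 that fell.

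Within Wap-high cells, B20-4.1.1 and isotype tumors differed in few genes. Of 7061 genes tested, 19 (0.269%) were higher and 12 (0.17%) lower in B20-4.1.1 tumors at an adjusted p under 0.05, and 870 had an unadjusted p under 0.05. Tumors of a pool are not independent of it. With pool as a random effect 1 gene was higher (Pgk1) and 1 lower (Pinc), and with sums per pool 0 were higher and 4 lower. Leaving out isotype pool 2 raised the counts to 551 and 483, and leaving out B20-4.1.1 pool 3 cut them to 4 and 2. Without the tumor with most Wap-high cells they were 6 and 2. All 31 genes kept their direction in every alternative that tested them, and 0 kept the call in every one.

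The genes higher under B20-4.1.1 included glycolytic and hypoxia-response genes. Pgk1, phosphoglycerate kinase, was at 0.871 to 2.33 (median 1.23) UMIs per 10000 in Wap-high cells of isotype tumors and 2.95 to 4.50 (median 3.31) in those of B20-4.1.1 tumors (log2 difference 1.31 ± 0.20 (SE), adjusted p = 0.00756), so the groups did not overlap. In the other epithelial cells it was at 1.35 to 1.71 (median 1.45) and 1.90 to 3.05 (median 2.64). Egln3, an oxygen-sensing prolyl hydroxylase, was at 0.112 to 0.484 (median 0.232) and 0.488 to 0.657 (median 0.602) (1.25 ± 0.21 (SE), adjusted p = 0.0116), also without overlap. Genes named here and in the next paragraph were chosen as calls whose pool means did not overlap, so separate ranges add no further support. Of B20-4.1.1 pool 2 only tumor 2 entered this comparison. Of 29 hypoxia genes tested 4 were higher, Pgk1, Egln3, Tpi1 (0.71) and Pgam1 (0.86), and 0 lower, with a median of 0.38 beside -0.0077 over all genes. Over the alternatives 0 to 12 were higher and 0 lower. Vegfa, which encodes the target of the antibody, did not pass the test (0.79 ± 0.22 (SE)). F3, tissue factor, the trigger of clotting (1.54 ± 0.30 (SE)), Sectm1a (1.26), Fam162a (0.98), Mif (0.82), Rab34 (0.80), Slu7 (0.79) and Bsg (0.78) completed the named genes on the higher side.

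The lower genes named by the rule were 4. Pinc, a noncoding RNA known from the pregnant and involuting gland, was at 0.446 to 0.767 (median 0.563) in isotype and 0.0568 to 0.187 (median 0.10) in B20-4.1.1 tumors (-2.56 ± 0.26 (SE), adjusted p = 3.50e-05), without overlap. In the other epithelial cells it was at 0.537 to 0.769 (median 0.626) and 0.0951 to 0.336 (median 0.241). Socs2 was at 0.224 to 1.02 (median 0.543) and 0.0893 to 0.249 (median 0.202) (-1.64 ± 0.27 (SE), adjusted p = 0.0116), with a small overlap. Npnt (-0.78) and Marcks (-0.75) were the others. The lower calls also held mt-Atp6, mt-Co3, mt-Nd2, mt-Nd3 and mt-Nd5, mitochondrial genes that the rule passed over. Each lost its call without isotype pool 1, and also without any single B20-4.1.1 pool. The median mitochondrial share of Wap-high cells was 5.21% to 6.13% in isotype pool 1 and 2.05% to 3.37% in the other fitted tumors. Its part in these calls was not tested. Of 15 milk protein genes tested 0 passed in either direction, with Csn1s1 at -2.25 ± 0.65 (SE), Csn2 at -1.44 ± 0.88 (SE) and Lalba at -0.88 ± 0.22 (SE) (n = 6 against 6 tumors). Over the alternatives 0 were higher and 0 to 4 lower, with 4 at the top 5% and 2 when either isotype pool was left out. Of 16 interferon-stimulated genes 0 passed, with a median of 0.70, which was 0.021 without B20-4.1.1 pool 3. Over the alternatives 0 to 2 were higher.

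**Figure D5:**
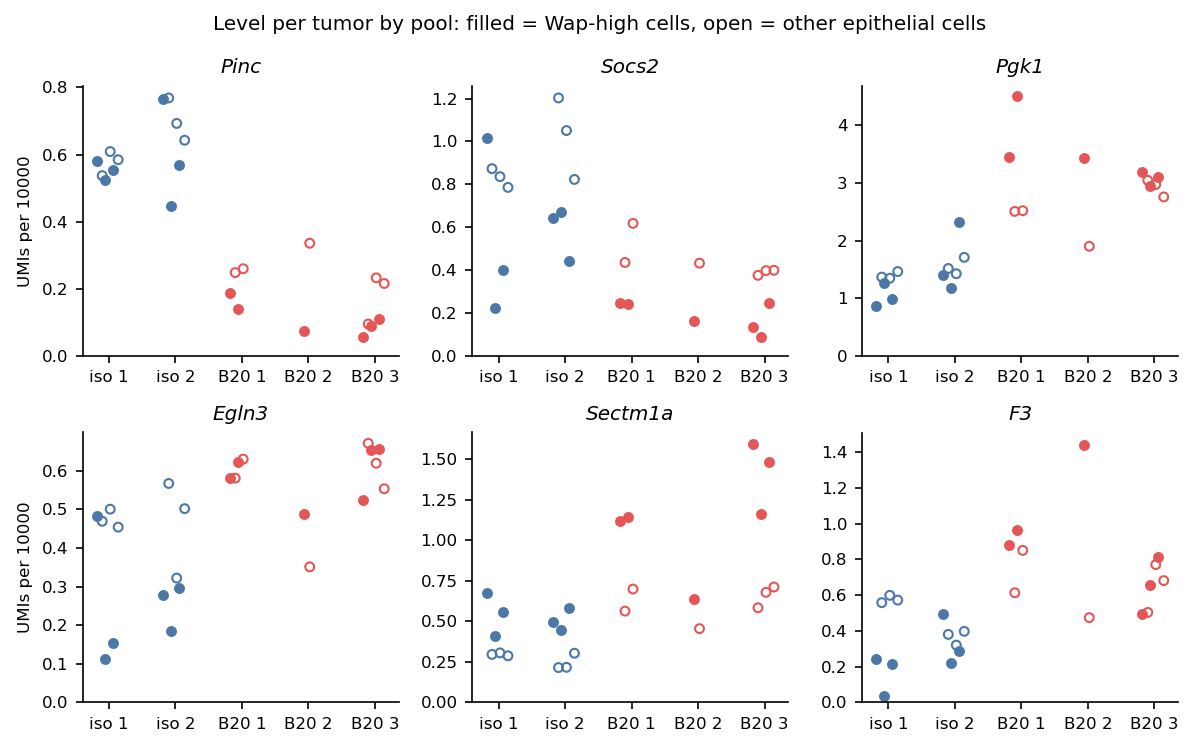
UMIs per 10000 of Pinc, Socs2, Pgk1, Egln3, Sectm1a and F3 in Wap-high cells (filled) and other epithelial cells (open) of each fitted tumor, by pool. By the median over tumors, Pinc and Socs2 lie lower and the other 4 genes higher in B20-4.1.1 tumors, in both kinds of cells.

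The excess in Wap-high cells differed between treatments for 9 of 10979 genes (0.082%) by an interaction term, and 835 had an unadjusted p under 0.05. All 9 had a larger Wap-high excess in isotype tumors. For Klk10 the mean log2 ratio was 4.01 over isotype tumors and 2.22 over B20-4.1.1 tumors (difference -2.10 ± 0.35 (SE), adjusted p = 0.0134). For Ly6a, a surface antigen of stem and progenitor cells, the ratios were 2.64 and 0.79 (-1.86 ± 0.30 (SE), adjusted p = 0.00911). For Ltf they were 2.44 and 1.65 (-0.78 ± 0.14 (SE), adjusted p = 0.0257). Without isotype pool 1 there were 0 such genes by the same edgeR test (717 with an unadjusted p under 0.05), and DESeq2 on all 12 tumors called 83. Of the 9 genes, 8 kept their direction and 0 their call in every alternative. Klk10 kept its call in 9 of 19 and was at 0.040 without Dmkn in the score. A Wap UMI was present in 56.0% to 78.4% of Wap-high cells in isotype pool 1 and 78.4% to 92.0% in isotype pool 2. In the fitted B20-4.1.1 tumors it was 69.05% to 87.1%. The part of this mix was not tested.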

How the data were processed

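Single-cell libraries of 15 tumors (10x 3′ v3.1) were deposited as gene-by-cell tables of raw UMI counts. The authors made them with Cell Ranger 6.1.2 (per the file headers) on mm10. The submitters' processing notes also name Seurat 4.3.0. The tables held 31053 gene rows and 12 multiplexing rows, which were kept out of all totals, and 30340 cells, of which 19533 passed a minimum of 2500 UMIs, the study's upper limit and at most 20% mitochondrial UMIs. No doublet caller was run. Cells were not clustered.

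Members and gene lists were chosen with earlier results of these data known. UMIs were summed per tumor and cell class and tested with edgeR 4.0.16 (quasi-likelihood, TMM, filterByExpr, Benjamini-Hochberg adjusted p under 0.05) in R 4.3.3. Wap-high against other cells had the tumor as a block. B20-4.1.1 against isotype used the sums of Wap-high cells. The interaction used both classes. The score genes and the gating genes were left out of the genes tested. The replicate was the tumor. The labels do not say whether tumors came from separate mice, so p-values measure the spread between these tumors. Single values used exact permutation tests over tumors, 2-sided. Genes outside the lists were named by size among calls whose average log2 CPM reached 5. Between cell classes these were up to 15 per direction with the same sign in all 12 tumors, between treatments up to 10 per direction whose pool means did not overlap, and for the interaction up to 5. Score, gate, predicted, mitochondrial and ribosomal protein genes were passed over by this rule, and 1 gene it named is not reported here.

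On simulated counts for the real genes, the comparison of cell classes recovered 94% of 100 genes changed by 1 on the log2 scale and 100% of 100 changed by 2 (5 of 199 calls false). The treatment comparison recovered 81% and 100% (9 of 190 false), and the interaction 30% and 95% (2 of 127 false). Apart from total UMIs and the changed genes, the simulated counts held no difference between tumors or pools. Every gene had the same dispersion. The rates therefore do not carry over to the real tumors and pools. Alternatives were other shares of cells, scores without Dmkn or Wap, thinned cells, other UMI limits, other normalization and filters, DESeq2 1.42.0, pool models and leaving out each pool. RefSeq promoter windows were matched by gene symbol.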

Additional observations from a re-analysis of the deposited data

Results flagged for a closer look

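Tumor 1 of B20-4.1.1 pool 3 lay far from the other 8 B20-4.1.1 tumors in its share of Wap-high cells, at 44.6% of epithelial cells (gap over range 0.869). Among the 6 fitted B20-4.1.1 tumors it also lay far from the others in the Wap level of its Wap-high cells, at 30.98 UMIs per 10000 (0.753). Chance flags about 1 in 20 groups, and 14 groups of values were looked at.

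The 9 genes below differed between treatments in the size of the Wap-high excess by edgeR's interaction test. The B20-4.1.1 minus isotype differences, on the log2 scale, were -2.10 for Klk10, -1.86 for Ly6a, -0.90 for Cryab, -0.86 for Clu, -0.78 for Ltf, -0.57 for Anxa2, -0.54 for Capg, -0.50 for Cyba and -0.26 for Malat1. Treatment and pool cannot be told apart, and the count was 0 without isotype pool 1.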

How the results depend on the processing

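No paired analysis was possible because the pool numbers are names given per treatment and pair no tumor across treatments. The tumor block of the cell comparison is part of its design. The share difference was 8.70 points (exact permutation p = 0.0234) without Wap in the score and otherwise kept its side. It ranged from 0.465 to 9.46 points when pools were left out, lowest without B20-4.1.1 pool 3, and was 1.20 without isotype pool 1. The UMI ratio lost its call without Dmkn in the score (log2 0.13, exact p = 0.287) and with the score genes left out of the counts (0.13, exact p = 0.102) and ranged from 0.15 to 0.28 when pools were left out. The difference in genes per cell turned to 14.88 with the score genes left out, since they take up part of the fixed depth. Genes higher and lower in Wap-high cells numbered 622 and 468 at the top 5% and 688 to 1183 and 635 to 1054 when pools were left out, lowest without isotype pool 2. Genes higher under B20-4.1.1 numbered 7 at the top 5%, 109 at the top 20%, 68 without Wap in the score, 10 with a UMI maximum of 15000, 7 with a minimum of 5000, 98 with the top 10% taken within each tumor, 6 without the tumor with most Wap-high cells (an alternative chosen after seeing the data), 59 by DESeq2, 4 with at least 50 members per tumor, 1 with pool as a random effect, 0 with sums per pool, and 4 to 551 when pools were left out. Genes lower numbered 75 at the top 20%, 44 without Wap, 4 with the UMI maximum of 15000, 73 within each tumor, 2 without the tumor with most Wap-high cells, 29 by DESeq2, 6 with at least 50 members, 1 with the random effect, 4 with sums per pool, and 2 to 483 when pools were left out. Genes of the interaction numbered 5 at the top 20%, 4 without Dmkn, 116 without Wap, 4 in thinned cells, 4 with the UMI minimum of 5000, 3 within each tumor, 145 with no filter on low counts, 83 by DESeq2, 3 with at least 50 members, and 0 to 33 when pools were left out. Of 97 genes named between cell classes, 88 kept their direction and 65 their call in every alternative. Without Dmkn in the score, Kit (-0.20), Klk8 (-1.16), Lypd3 (-0.52), Klf4 (-0.011) and Anxa1 (-0.0085) turned lower, Lyz2 (0.049) higher, and the Klk10 interaction was 0.040. Without Wap, Thrsp (-0.037), Xbp1 (-0.094) and Saa2 (-1.31) turned lower, as did Klk8 (-0.12) at the top 5%. The cause was not tested. Tumors with fewer than 20 Wap-high cells, and the low casein counts per tumor, limit the precision.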
